A study of Mus musculus with 4 samples.

Results

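The cells described here are the RFP- luminal cells of the intact adult mouse prostate, compared between the anterior prostate (AP) and the ventral prostate (VP). They were taken from 3 droplet scRNA-seq runs as cells with 750 to 7500 detected genes, under 10% mitochondrial UMIs and 1 dominant MULTI-seq barcode of a hormone-intact population not labelled RFP high. They also had at least 1 Epcam UMI, no Ptprc UMI, at least 5 Krt8 plus Krt18 UMIs and under 3 Krt5 plus Krt14 UMIs per 10,000. This gave 297 AP cells (87, 159 and 51 in runs 1, 2 and 3) and 127 VP cells (19, 63 and 45), together 424 of the 2335 luminal cells that the same gates found, of 11674 cells in the 3 adult runs and of 19148 cells in the series. The 6 gating genes chose the cells and are described without a test.

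The mice were adult males older than 8 weeks on an ICR (CD-1) background and carried P2-Runx1:RFP, an allele in which the proximal P2 promoter of Runx1 drives a red fluorescent protein. AP and VP cells of a run shared genotype, strain, age and hormone status, and none were castrated. The lobes were dissected, dissociated, pooled over mice and sorted as live EPCAM+ cells into RFP+ and RFP- fractions, each holding basal and luminal cells, before barcoding and pooling into 1 library per run. A run is therefore a pool of mice, a difference between runs mixes animals with library effects, and 1 mouse cannot be followed.

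Luminal cells line the ducts of the prostate and release the proteins of seminal fluid, and their secretory programme is driven by the androgen receptor with transcription factors such as Foxa1 and Hoxb13. The lobes of the mouse prostate differ in branching, histology and secretion: the ventral lobe is the classical source of spermine-binding protein (Sbp), and the anterior lobe, also called the coagulating gland, of the transglutaminase Tgm4 that clots semen into the copulatory plug. Close to the urethra the ducts hold a proximal luminal type marked by Psca and Krt4.

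The luminal label was set by the gate, so the levels of the gating keratins describe the chosen cells and do not test the label. Krt8, a simple-epithelium keratin, measured 596, 440.1 and 314 TMM-scaled CPM (UMI counts scaled to the size of each sum) in AP runs 1, 2 and 3 and 689, 647 and 454 in VP, and its partner Krt18 measured 1185, 1213 and 1113 against 1142, 1419.6 and 1434. The basal keratins Krt5 and Krt14, which the gate limits, stayed at or under 17.2 CPM in all 6 sums. With Trp63, Krt15 and Krt17, which the gate does not use, basal markers summed to 311, 190 and 281 CPM in AP. In VP this basal sum was 437, 52.2 and 380 CPM. At the edges of the gate, 3.33%, 3.05% and 17.7% of otherwise eligible AP cells and 5%, 5.97% and 16.7% of VP cells failed the luminal keratin minimum. Just inside it, at 5 to 6 UMIs per 10,000, lay 1, 0 and 4 AP cells and 1, 6 and 4 VP cells, and just outside, at 4 to 5, lay 2, 3 and 4 AP cells and 1, 1 and 3 VP cells. Proximal cells with at least 5 Psca plus Krt4 UMIs per 10,000 numbered 12, 5 and 0 in AP and 5, 1 and 0 in VP. Psca itself ran from 1.56 to 1082 CPM in AP and from 2.91 to 364 in VP, with run 1 highest in each lobe (log2 fold change 1.55 ± 1.59, edgeR adjusted p = 0.6138, and 0.00305 with run as a block). Runx1 measured 16.3, 12.1 and 12.5 CPM in AP and 26.3, 16.2 and 12.6 in VP (-0.37 ± 0.30, edgeR adjusted p = 0.4944, with a sign that turns without TMM scaling).

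The longer lists of hematopoietic, endothelial, fibroblast and seminal vesicle markers were each highest in AP run 1. Ptprc, by the gate, and Cd3d were at 0. With Cd74, Itgam and Vim they summed to 6.46, 25.3 and 1.56 CPM in AP and 48.7, 18.4 and 0 in VP. This shorter hematopoietic set was thus highest in VP run 1. Pecam1, Cdh5 and Kdr of endothelium summed to between 0 and 3.07 CPM per sum. Seminal vesicle genes (Svs2, Svs4, Svs5 and Pax2) summed to 2299.6 CPM in AP run 1 against 3.88 to 14.0 elsewhere, and 99.5% of the Svs2, Svs4 and Svs5 UMIs of that sum came from 1 cell. The fibroblast list of 7 genes summed to 34.6 CPM there and to 0 to 5.46 elsewhere. The 15 hematopoietic markers summed to 219, 137 and 99.1 CPM in AP and 84.3, 35.1 and 4.85 in VP. Cd52 made up 206, 91 and 92 CPM of that in AP and 15.8, 2.63 and 0.971 in VP, and 1 AP cell held 68.9% of its run 1 UMIs. The part of these cells in the results was not tested. VP run 1 stood apart from the other VP runs: of its 19 cells, 4 held at least 20 Tgm4 UMIs per 10,000, and for genes called more than 4-fold higher in AP it held a median of 23.6% of the AP mean, against 7.97% and 7.54% in VP runs 2 and 3. For the genes named, log2 fold changes without run 1 are given where the fold moved by more than 1.5 times, with exceptions. Elf5, Emcn and Aldh1a2 were not counted in VP runs 2 and 3 and then have no fold. For 9530053A07Rik and C1rb, far lower in VP runs 2 and 3 than in VP run 1, only the adjusted p without run 1 is given.

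The 6 sums held 1749608, 3781842 and 1078280 UMIs in AP and 791268, 3137988 and 1597475 in VP. The median VP cell held 26725, 41327 and 16684 UMIs and the median AP cell 19972, 22272 and 11194, a difference of the run means of 10433 that an exact permutation test over the 6 sums did not separate (two-sided p = 0.3, where 3 against 3 allows no p under 0.1). Within each run the VP median lay above the AP median, a pairing that this test does not use. Genes per cell differed by 57 between the means (3588.33 in VP, 3531.33 in AP, exact permutation p = 0.8). The 10 most abundant genes took 44.0%, 55.7% and 52.4% of all UMIs in VP and 13.6%, 24.4% and 18.9% in AP, means of 50.7% ± 6.02 and 19.0% ± 5.37 (SD, n = 3 runs), with exact permutation p = 0.1, the smallest the design allows. The runs did not overlap on this measure. Levels below are scaled by TMM, which sets the bulk of genes level between lobes. In sums of cells, fewer cells with a message and less of it per cell cannot be told apart. The cell classes further on describe shares of cells and levels within a class, without a test.

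The most abundant secretory messages differed between lobes (plot of levels by run). In AP they were Sbp, 9530053A07Rik, Spink1, Tgm4, 9530002B09Rik and Pbsn. In VP they were Sbp, Spink1, Sbpl, Defb50, 9530002B09Rik and Msmb, so Sbp, Spink1 and 9530002B09Rik stood on both lists. Defb50 and Msmb were outside the 10 most abundant genes of VP run 1, as was Spink1 in AP run 1. Across the genome 780 of 7905 genes tested passed an adjusted p of 0.05 by edgeR's quasi-likelihood test on the 6 sums (9.87%). Of these, 367 were higher in AP (4.64%) and 413 in VP (5.22%), and 236 changed more than 4-fold, 130 toward AP and 106 toward VP. With run as a block, which compares the lobes within each pool of mice, 1533 passed (19.4%), 683 toward AP (8.64%) and 850 toward VP (10.8%). In 776 of the 780 called genes the 3 AP runs and the 3 VP runs did not overlap, against 2406 of all 7905 (30.4%). Without run 1 the count was 1039, of which 682 were among the 780. Without run 2 or without run 3 no gene passed (1067 and 1446 genes at an unadjusted p under 0.05), although all 742 and 779 called genes that could still be tested kept their direction. DESeq2 called 677. With raw UMI totals in place of TMM, the median of all genes moved to 0.80 on the log2 scale and 3420 of 3578 calls pointed to AP (95.6%, against 47.0% with TMM), so directions are relative to the bulk of genes.

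**Figure D1:**
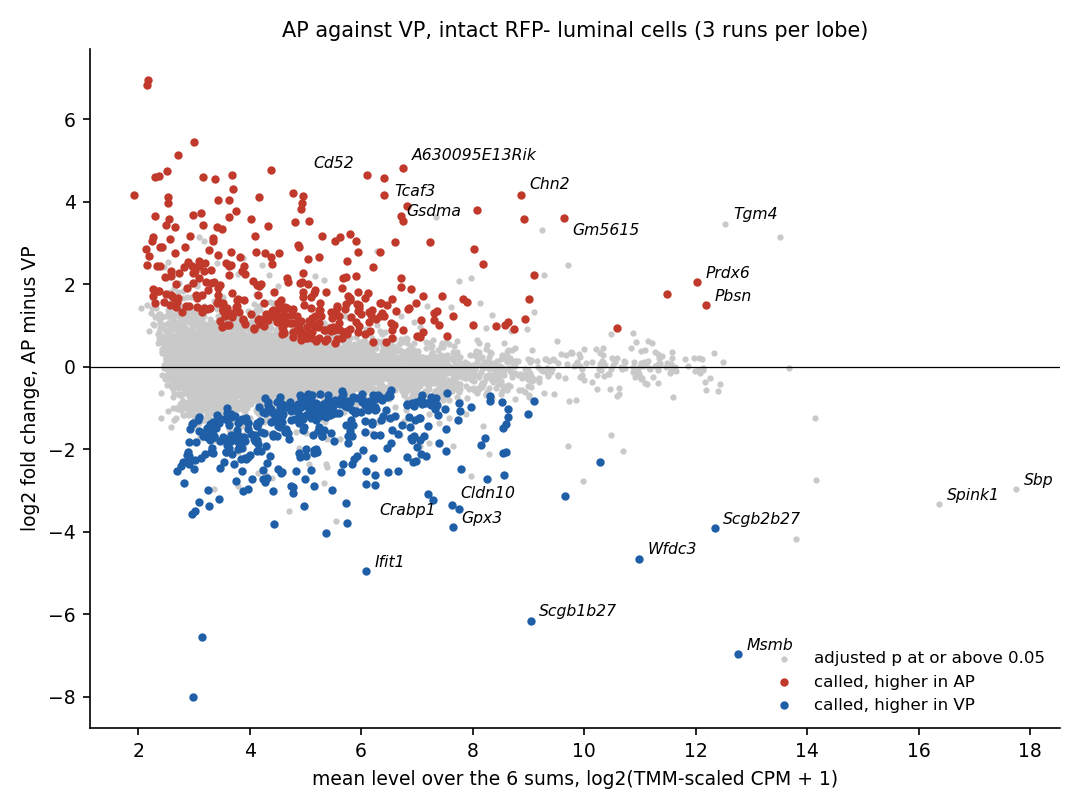
Mean level of each tested gene over the 6 sums (x axis, log2 of TMM-scaled CPM + 1) against its log2 fold change, AP minus VP (y axis); each point is 1 gene, red where called higher in AP (367), blue where called higher in VP (413) and grey otherwise. Msmb (-6.95), Scgb1b27 (-6.15) and Wfdc3 (-4.65) are blue, while Sbp (-2.97), Spink1 (-3.33) and Tgm4 (3.48) are grey.

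Of 38 genes put on a list of secreted proteins, 32 were tested, 8 were higher in AP, 10 were higher in VP and 14 did not pass, Sbp, Spink1 and Tgm4 among them. Their median log2 fold change was -1.79 against 0.01 over all genes tested, and with run as a block 12 and 18 passed. The 38 genes together made up 10.2%, 22.2% and 16.2% of AP UMIs and 42.1%, 54.2% and 50.8% of VP UMIs. The list was written with earlier results of these cells known, so its count is a description. It also holds Gsdma, a pore-forming gasdermin, and genes with provisional names such as Gm5615 and BB123696, whose secretion was not checked.

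Tgm4 (chr9:123034726-123067561, GRCm38) was level over the AP runs, at 10652, 10248 and 11443 CPM, and stood at 2492, 136 and 282 CPM in VP. The lobes did not overlap, but VP run 1 stood far above VP runs 2 and 3, and the difference missed the threshold (log2 fold change 3.48 ± 0.98, edgeR adjusted p = 0.05828). It passed with run as a block (adjusted p = 0.0008321) and without run 1 (log2 fold change 5.73, adjusted p = 0.0002412). 9530053A07Rik, which exceeded Tgm4 in each AP run, measured 21756, 16928 and 24056 CPM against 6239, 196 and 644 (3.15 ± 1.08, edgeR adjusted p = 0.107, 0.001643 with the block and 0.0009484 without run 1). Pbsn, probasin, an androgen-driven lipocalin, passed in the main comparison, with 6709, 6577 and 7487 CPM in AP against 2857, 2204 and 2249 in VP (1.51 ± 0.27, edgeR adjusted p = 0.01163, and 0.07359 without the 10% of cells with most UMIs). DLP RFP- luminal cells, from the dorsolateral lobe, held Pbsn at 6850.2, 7332 and 12714 CPM and Tgm4 at 6263, 6339.6 and 8225.

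The bases before the start of 3 of these genes are shown for the letters of the androgen response element, since the gland is driven by androgen: Tgm4 and Pbsn with higher values in AP and Gpx3, a secreted glutathione peroxidase, higher in VP. Each line holds the 250 bases 5′ of the RefSeq start on the gene's strand (GRCm38.p6): chr9:123034491-123034740 on the plus strand for Tgm4, chrX:77853501-77853750 on the minus strand for Pbsn and chr11:54902604-54902853 on the plus strand for Gpx3. Capitals mark AGAACA or its reverse complement TGTTCT, the hexamer of that element, and TATAAA.

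Tgm4: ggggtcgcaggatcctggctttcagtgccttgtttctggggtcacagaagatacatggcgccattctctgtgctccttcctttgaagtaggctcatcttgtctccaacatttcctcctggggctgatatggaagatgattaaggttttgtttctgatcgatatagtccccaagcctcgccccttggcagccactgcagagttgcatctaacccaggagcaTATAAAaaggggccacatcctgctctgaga
Pbsn: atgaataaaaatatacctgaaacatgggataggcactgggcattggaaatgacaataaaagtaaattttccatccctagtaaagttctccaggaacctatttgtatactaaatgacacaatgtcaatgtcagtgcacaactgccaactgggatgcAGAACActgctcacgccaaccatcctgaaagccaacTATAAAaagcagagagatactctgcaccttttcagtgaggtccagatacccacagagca
Gpx3: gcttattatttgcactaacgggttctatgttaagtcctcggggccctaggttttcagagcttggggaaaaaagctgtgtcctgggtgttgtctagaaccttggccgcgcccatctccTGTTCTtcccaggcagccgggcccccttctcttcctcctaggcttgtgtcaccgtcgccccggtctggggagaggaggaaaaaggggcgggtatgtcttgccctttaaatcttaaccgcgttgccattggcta

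TATAAA stood from -30 to -25 in Tgm4 and from -59 to -54 in Pbsn, AGAACA from -95 to -90 in Pbsn and TGTTCT from -133 to -128 in Gpx3. The Tgm4 window held neither hexamer. Of 28 genes searched (the 24 leading genes and Sbp, Tgm4, Pbsn and Spink1), 18 had a RefSeq promoter, with 24 promoter entries between them. AGAACA or TGTTCT stood in 5 of these entries, from 4 genes, and TATAAA or TTTATA in 3, on either strand. The shares over all 32851 promoter entries of this length were 16.1% and 12.4%. AGAACA and TGTTCT 3 bases apart, with at most 2 of these 12 letters off, stood in 0 of 24 promoter entries of these genes and in 1.56% of all. A match is a run of letters and not a bound site.

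On the VP side, Sbp filled 30.0%, 31.9% and 26.7% of all UMIs in VP and 1.58%, 10.7% and 6.26% in AP. Scaled, that was 312680.0, 439475 and 413394 CPM against 10470.0, 85949.6 and 52652 CPM, with no overlap, and the difference missed the threshold (-2.97 ± 0.87, edgeR adjusted p = 0.06675, 0.0002516 with the block and 0.09991 without run 1). Sbpl, its neighbour and close paralog on chromosome 17, measured 21392, 44933 and 29409 CPM in VP and 745, 8723 and 4925 in AP (-2.73 ± 0.79, edgeR adjusted p = 0.06314, 0.0003486 with the block and 0.01878 without run 1). Reads that fit both genes cannot be assigned with certainty. Spink1, a Kazal-type trypsin inhibitor, measured 56333, 158458 and 243771 CPM in VP and 2035, 27261 and 16329 in AP (-3.33 ± 0.98, edgeR adjusted p = 0.06829, 6.415e-05 with the block, 0.02732 without run 1). For Sbp, Spink1 and Sbpl, AP run 1 was the lowest of the 6 sums and AP run 2 the highest of the AP runs. Defb50, a beta-defensin, measured 103, 2259 and 2137 CPM in AP and 3071, 35712 and 42881 in VP, again without overlap (-4.18 ± 1.23, edgeR adjusted p = 0.06821, 1.672e-06 with the block and 0.001013 without run 1).

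The largest change among leading genes that passed was Msmb, beta-microseminoprotein (chr14:32142023-32158370). It measured 3519.8, 24228 and 13776 CPM in VP and 3.04, 205 and 126 CPM in AP (-6.95 ± 1.39, edgeR adjusted p = 0.01701, and 0.05026 with stricter barcodes). Run 1 was lowest in each lobe, and the lowest VP run lay above the highest AP run. Single cells held much of it: 68.5% of the UMIs in VP run 1, where 4 of 19 cells had any, and 60.9% and 90.1% in AP runs 2 and 3. Wfdc3, of the WAP-domain protease inhibitor family (chr2:164731180-164745931), measured 1998, 4186 and 5559 CPM in VP and 8.36, 124 and 340.1 in AP (-4.65 ± 1.08, edgeR adjusted p = 0.02951). Gpx3 (chr11:54902453-54910377) rose in VP from 7.22, 31.9 and 38.2 CPM in AP to 151, 312 and 662 (-3.89 ± 0.69, edgeR adjusted p = 0.01081), and DLP cells held 286, 137 and 1311 CPM. Timp4, a metalloproteinase inhibitor, measured 173, 413 and 262 CPM in VP and 20.1, 44.2 and 25 in AP (-3.23 ± 0.40, edgeR adjusted p = 0.003568), and 5430419D17Rik 829.9, 1777 and 1749 against 47.9, 299 and 154 (-3.12 ± 0.62, edgeR adjusted p = 0.01651). For each of these 5 genes the AP and VP runs did not overlap, but 5430419D17Rik did not pass with stricter barcodes (edgeR adjusted p = 0.1253).

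Secretoglobins are small secreted proteins. Of 34 measured, 9 were tested, all 9 had a negative log2 fold change, 2 were higher in VP and none in AP (median -2.03), and without run 1 the calls were 3 and 1. The 2 are the adjacent genes Scgb1b27 (chr7:34021483-34022881, plus strand) and Scgb2b27 (chr7:34011921-34013942, minus strand), which encode subunits of androgen-binding protein found in secretions. Scgb1b27 measured 1324, 932 and 855 CPM in VP and 1.9, 37.2 and 0 in AP (-6.15 ± 1.15, edgeR adjusted p = 0.01334), and Scgb2b27 12246, 3886 and 13059 against 103, 1322 and 513 (-3.91 ± 0.88, edgeR adjusted p = 0.02703). Single cells carried much of both: the highest VP cell of a run held 41.7%, 90.5% and 61.3% of the Scgb1b27 UMIs and 49.5%, 29.0% and 68.2% of the Scgb2b27 UMIs. Ifit1, an interferon-induced RNA-binding protein, measured 324, 16.2 and 53.4 CPM in VP and 0.76, 6.59 and 3.12 in AP (-4.95 ± 1.15, edgeR adjusted p = 0.02937), with 93.1% of its VP run 1 UMIs in 1 cell. With stricter barcodes Ifit1 (edgeR adjusted p = 0.0633) and Scgb2b27 (0.1945) did not pass, and without run 1 the log2 fold changes were -5.31 for Scgb1b27, -3.18 for Scgb2b27 and -2.47 for Ifit1.

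**Figure D2:**
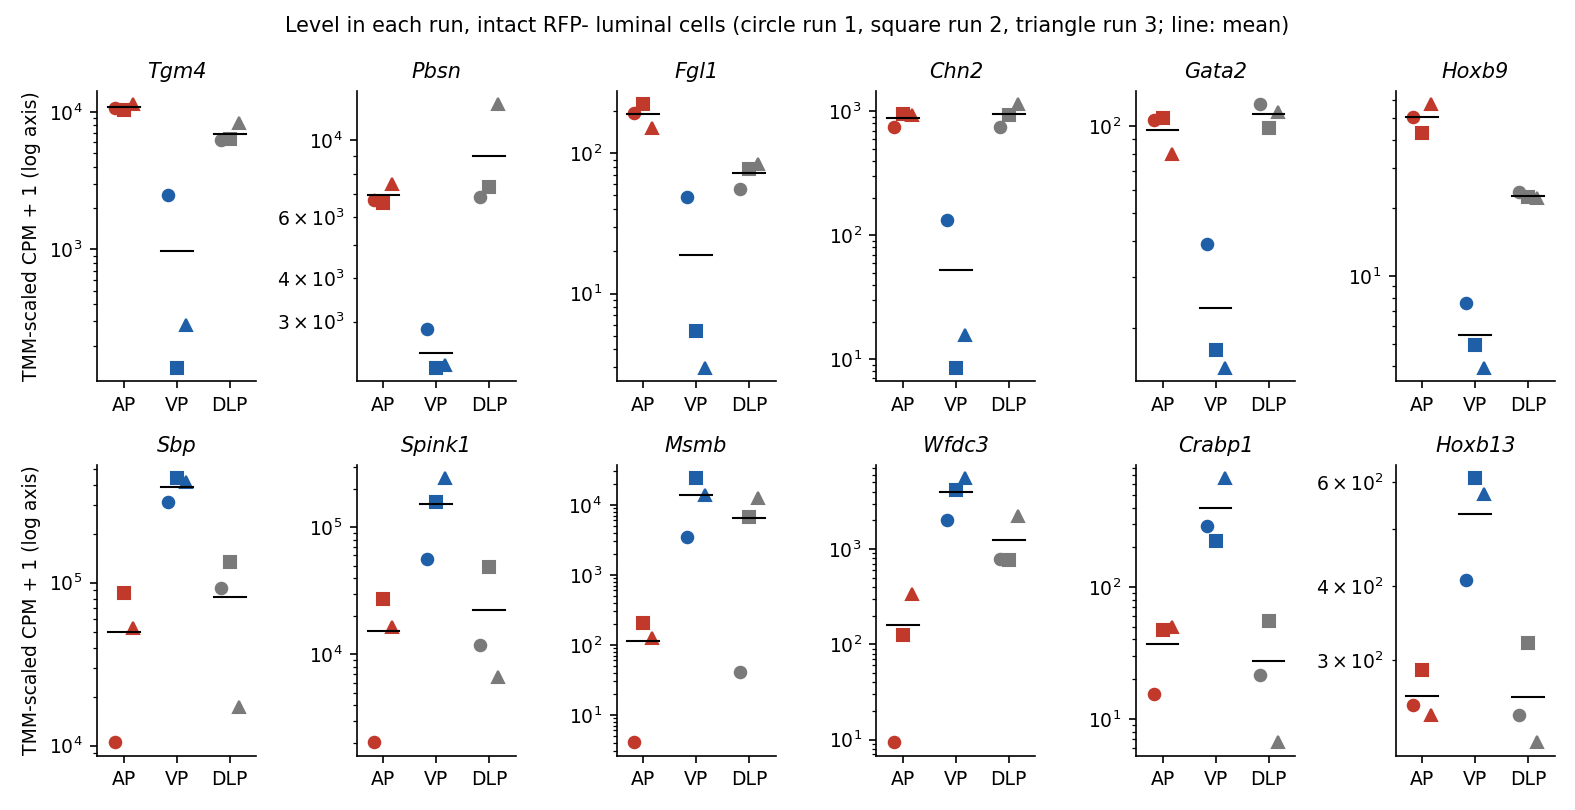
Level in each run for 12 genes (y axis, TMM-scaled CPM + 1 on a log axis that does not start at 0) in AP, VP and DLP RFP- luminal cells; circles, squares and triangles are runs 1, 2 and 3 and the line is their mean. In the upper row the 3 AP runs lie above the 3 VP runs, in the lower row below them, and VP run 1 is the highest VP run for Tgm4 (2492 CPM), Fgl1 (47.4) and Chn2 (133).

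The leading AP genes, among which Tgm4 is not counted since it was not called, were less abundant than Tgm4 and lowest in VP runs 2 and 3. Chn2, the Rac GTPase-activating protein beta2-chimaerin (chr6:54039554-54301810), measured 755, 948 and 934 CPM in AP and 133, 7.46 and 14.6 in VP (4.17 ± 0.93, edgeR adjusted p = 0.02547). Gsdma, the pore-forming gasdermin A (chr11:98664351-98677708), measured 543, 476 and 484 CPM against 103, 4.39 and 9.71 (3.81 ± 0.94, edgeR adjusted p = 0.03824). Fgl1, a secreted fibrinogen-like protein (chr8:41191434-41215156), measured 193, 224 and 151 CPM against 47.4, 4.39 and 1.94 (3.66 ± 0.81, edgeR adjusted p = 0.02518). All 3 were highest in run 1 among the VP runs, as were 243 of the 367 genes called higher in AP. The complement-type protease gene C1s2 gave 179.6, 172 and 226 CPM against 54, 1.32 and 4.85 (3.54 ± 0.91, edgeR adjusted p = 0.04369). Its neighbour on chromosome 6, C1rb, gave 1254, 925 and 1097 CPM against 311, 11.4 and 17.5 and missed the threshold (3.31 ± 1.08, edgeR adjusted p = 0.09196, 0.00121 with the block and 2.065e-05 without run 1). Gpt2, a mitochondrial alanine aminotransferase, Pgm2l1, a glucose 1,6-bisphosphate synthase, and Tcaf3, of the TRPM8 channel-associated family, had log2 fold changes of 3.04 ± 0.42, 3.89 ± 0.70 and 4.59 ± 0.73, with edgeR adjusted p of 0.004755, 0.01144 and 0.007271. Gm37223 and Gm5615 had 3.60 ± 0.86 and 3.60 ± 0.69, with edgeR adjusted p of 0.03304 and 0.01443. Without run 1 the log2 fold changes were larger: 6.53 for Chn2, 6.25 for Gsdma, 5.72 for Fgl1, 6.30 for C1s2, 5.32 for Pgm2l1, 5.70 for Tcaf3, 5.43 for Gm37223 and 4.81 for Gm5615. C1s2 did not pass by DESeq2 (adjusted p = 0.1209) or with stricter barcodes (edgeR adjusted p = 0.06447), nor Fgl1 by DESeq2 (0.0578), nor Gm37223 with stricter barcodes (0.05813).

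Cd52 and A630095E13Rik led the AP genes by fold change but reached higher levels in DLP. Cd52, a glycosylphosphatidylinositol-anchored glycopeptide of lymphocytes and of male tract epithelium, measured 206, 91 and 92 CPM in AP, 15.8, 2.63 and 0.971 in VP and 2797, 1958 and 2276 in DLP (AP minus VP 4.67 ± 0.68, edgeR adjusted p = 0.005582). A630095E13Rik, on chromosome 9 near Gm5615, measured 369.5, 202 and 42.1 CPM in AP, 29, 0 and 0.971 in VP and 2896, 2231 and 2079 in DLP (4.82 ± 1.24, edgeR adjusted p = 0.04369). It did not pass by DESeq2 (adjusted p = 0.2183) or with stricter barcodes (edgeR adjusted p = 0.09434), and without run 1 it was 8.49 and Cd52 5.43. In AP run 1 a single cell held 77.4% of its UMIs. Cd52 was seen in 51.7%, 50.9% and 47.1% of AP cells and in 26.3%, 9.52% and 2.22% of VP cells, with Ptprc at 0 by the gate. These shares are from cells at full depth, with no background share beside them.

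Single cells carried either Tgm4 or Sbp in quantity, with few holding both (plot of Sbp against Tgm4). Cells were therefore sorted by whether they held at least 20 Tgm4, 500 Sbp or 100 Msmb UMIs per 10,000. These limits were set after the values were seen, and the classes carry no test. Tgm4 cells made up 80.5%, 77.4% and 64.7% of AP cells in runs 1 to 3 and 21.1%, 0% and 4.44% of VP cells, where 0 of 63 allows a share of up to 4.76%. Sbp cells made up 31.6%, 61.9% and 62.2% of VP cells and 3.45%, 10.7% and 5.88% of AP cells. Msmb cells were 0, 13 and 9 cells in VP and 0, 2 and 0 in AP. More than 1 limit was passed by 2, 7 and 2 VP cells and 0, 5 and 1 AP cells, and these would include any doublets within 1 sorted population, which barcodes cannot remove. The remaining 14, 12 and 14 AP cells and 7, 4 and 4 VP cells passed none, and 11, 4 and 0 of the AP cells and 5, 1 and 0 of the VP cells among them had the proximal markers.

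**Figure D3:**
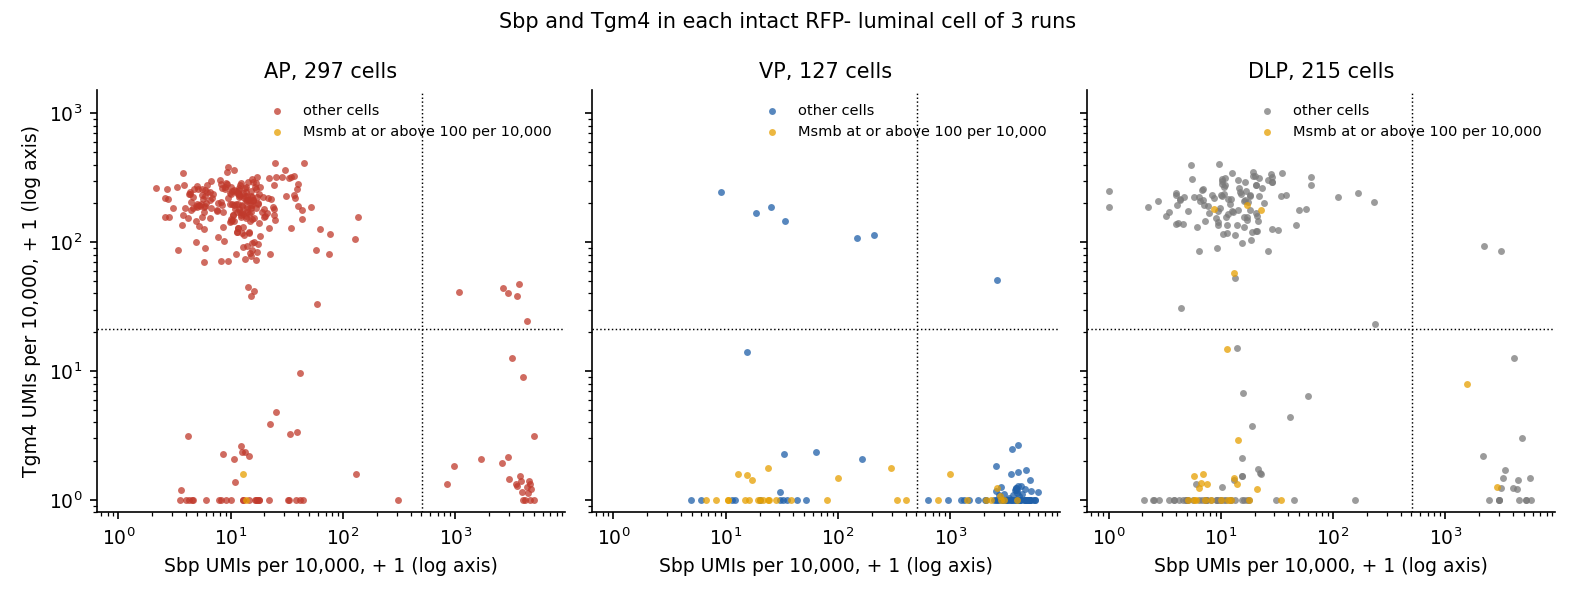
Sbp (x axis) against Tgm4 (y axis) in each RFP- luminal cell of AP, VP and DLP, in UMIs per 10,000 plus 1 on log axes; orange points hold at least 100 Msmb UMIs per 10,000 and dotted lines mark 500 Sbp and 20 Tgm4. AP cells cluster at high Tgm4 and low Sbp, VP cells at high Sbp and low Tgm4, and the orange cells of VP lie mostly at low Tgm4 on both sides of the Sbp line.

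**Figure D4:**
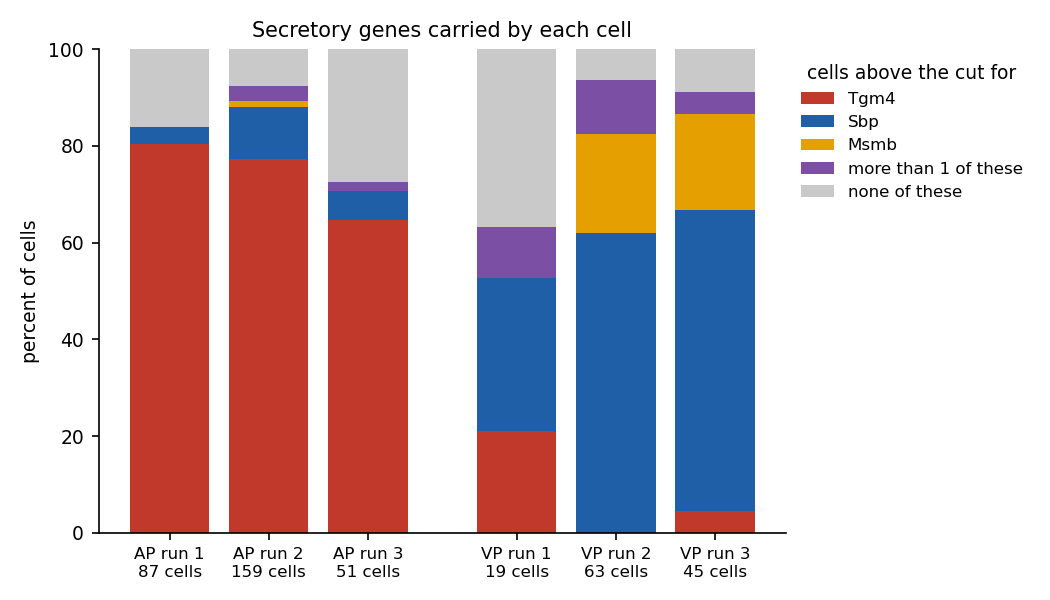
Percent of RFP- luminal cells (y axis, from 0 to 100) above the limit for Tgm4, Sbp or Msmb alone, for more than 1 of them or for none, in each lobe and run (x axis, with the number of cells). Tgm4 cells fill 80.5%, 77.4% and 64.7% of the AP bars and 21.1%, 0% and 4.44% of the VP bars.

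Classes were compared between lobes by their values only. Summed over runs, Tgm4 cells held 191 Tgm4 UMIs per 10,000 in AP and 169 in VP, and Sbp cells held 3867 and 3814 Sbp UMIs, values that the limits themselves select for. Fgl1 measured 3.69 and 2.92 per 10,000 in Tgm4 cells of AP and VP, Gsdma 8.98 and 6.30, Prdx6 119 and 114.5, Chn2 16.1 and 8.59 and Hoxb9 0.816 and 0.236. C1s2 (3.31 and 3.62), Slc30a2 (2.56 and 2.76) and Gata2 (1.77 and 2.13), also called higher in AP, ran the other way in Tgm4 cells. In Sbp cells of AP and VP, Prdx6 stood at 6.54 and 5.30 and Hoxb9 at 0.0209 and 0.0200. The other genes named here stood at 0 to 0.115 in Sbp cells of either lobe. The VP side of these figures rests on 6 Tgm4 cells (4, 0 and 2 per run) and the AP side of the Sbp class on 23 cells (3, 17 and 3), too few per run to fit the lobe difference within a class.

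Some VP genes differed between the Sbp and the Msmb cells and others did not. In VP, Crabp1 held 3.40 UMIs per 10,000 in Sbp cells and 0.0844 in Msmb cells, and Scgb2b27 78.8 and 0.169. Wfdc3 ran the other way, with 18.5 in Sbp cells and 92.3 in Msmb cells, as did Gpx3 with 1.59 and 8.74, Cldn10 with 1.42 and 8.98 and Defb50 with 63.3 and 1150.0. 5430419D17Rik stood at 12.4 and 14.0, Timp4 at 2.05 and 4.27 and Rgs2 at 1.81 and 3.73. Spink1 was present in both, at 1443 per 10,000 in Sbp cells and 369.5 in Msmb cells. Pbsn, called higher in AP, held 195 per 10,000 in Tgm4 cells and 103 in Msmb cells of VP but 0.247 in Sbp cells. In AP, Sbp cells held 0.657 Pbsn UMIs per 10,000 and Tgm4 cells 123. Of the VP genes above, AP Sbp cells held 11.97 per 10,000 of 5430419D17Rik, 1.878 of Timp4 and 2.296 of Rgs2. VP Sbp cells held 12.4, 2.05 and 1.81, so of these genes only Rgs2 was higher in AP Sbp cells. AP Sbp cells lay below VP Sbp cells for Crabp1 (2.463), Scgb2b27 (54.02), Wfdc3 (7.347), Gpx3 (0.574), Cldn10 (0.8036), Defb50 (24.23) and Spink1 (1146). The AP values rest on few Sbp cells, and the lobe difference within Sbp cells was not tested.

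Shares of cells with at least 1 UMI were compared after thinning each cell to 2000 UMIs, which left out 1, 1 and 2 AP cells and no VP cell, beside cells of the same lobe with basal keratins, in which free RNA can give a UMI. Tgm4 was found in 83.7%, 84.8% and 69.4% of AP cells and 21.1%, 7.94% and 8.89% of VP cells, with 25.6%, 22.4% and 11.9% of basal-keratin cells in AP and 15.2%, 1.01% and 3.60% in VP. Unthinned, the shares were 89.7%, 92.5% and 82.4% in AP and 57.9%, 34.9% and 31.1% in VP. Gsdma, at 72.1%, 61.4% and 51.0% of AP cells and 15.8%, 0% and 2.22% of VP cells (0 of 63 cells allows up to 4.76%), had 0.744% to 4.48% in basal-keratin cells of AP. Unthinned it was 82.8%, 83.0% and 64.7% of AP cells and 31.6%, 9.52% and 11.1% of VP cells. Wfdc3 was found in 31.6%, 68.3% and 82.2% of VP cells and 2.33%, 10.8% and 10.2% of AP cells, with 3.03%, 3.03% and 6.31% in basal-keratin cells of VP. Unthinned it was 57.9%, 85.7% and 88.9% of VP cells and 9.20%, 29.6% and 25.5% of AP cells. Msmb was found in 15.8%, 36.5% and 51.1% of VP cells and 3.03%, 17.2% and 9.91% of basal-keratin cells of VP, and unthinned in 21.1%, 69.8% and 77.8% of VP cells. Sbp had a UMI in 61.6%, 93.0% and 93.9% of thinned AP cells, and since every cell of both lobes had 1 unthinned, its share is read as background. Median depth was 19972, 22272 and 11194 UMIs in AP cells and 17086.5, 10277 and 9287 in their basal-keratin cells, and 26725, 41327 and 16684 against 9601, 8708 and 9643 in VP.

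Of 42 transcription factors of the prostate lineage, 30 were tested, 8 were higher in AP, 1 was higher in VP and 21 did not pass (9 and 6 with the block), with a median log2 fold change of -0.15. For this and every other list, the shares over all genes tested were 4.64% higher in AP and 5.22% in VP. With the block they were 8.64% and 10.8%. Gata2 and Gata3, zinc-finger factors of luminal epithelium, rose in AP by 2.20 ± 0.34 and 2.17 ± 0.46 on the log2 scale (edgeR adjusted p = 0.006635 and 0.02095), from 38.2, 15.8 and 13.6 CPM to 104, 106 and 78.8 for Gata2. The T-box repressors Tbx2 and Tbx3 followed with 2.90 ± 0.54 and 0.91 ± 0.19, and the ETS factors Elf5 and Ehf with 3.79 ± 0.84 and 1.08 ± 0.26 (edgeR adjusted p of 0.01334, 0.02035, 0.0247 and 0.03385). Elf5 was counted at 28.5, 17.6 and 21.1 CPM in AP and 7.9, 0 and 0 in VP, and Tbx2 stayed under 10 CPM throughout. Elf5 did not pass by DESeq2 (adjusted p = 0.4213), nor Ehf with stricter barcodes (edgeR adjusted p = 0.06671), and Gata3 was 2.99 without run 1. By cell class, Gata2 held 1.77 and 2.13 UMIs per 10,000 in Tgm4 cells of AP and VP and 0.0209 and 0.0175 in Sbp cells. Elf5 held 0.375 and 0.394 in Tgm4 cells and 0.0209 and 0 in Sbp cells, and Tbx2 0.141 and 0.0788 in Tgm4 cells. The VP values rest on few Tgm4 cells, and the part of the class mix in these differences was not tested. Lmo7, a LIM-domain protein, was higher in AP by 1.55 ± 0.22 (edgeR adjusted p = 0.004986). Foxa1, a pioneer factor for the androgen receptor, gave 74.4, 58 and 67.1 CPM in AP and 76.4, 71.5 and 97.1 in VP, overlapping (-0.29 ± 0.18, edgeR adjusted p = 0.3701, positive without TMM).

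Hox genes, which carry position along the body axis, differed at 1 gene each way of 6 tested. Hoxb9 (chr11:96271457-96276595) measured 49.8, 42.1 and 56.9 CPM in AP, 6.59, 3.95 and 2.91 in VP and 22.5, 21.4 and 21.2 in DLP (AP minus VP 3.52 ± 0.28, edgeR adjusted p = 0.001712), so the 3 lobes held 3 separate ranges. In AP it held 0.816 UMIs per 10,000 in Tgm4 cells and 0.0209 in Sbp cells. In VP it held 0.236, from 3 UMIs, and 0.0200. The part of the class mix in the lobe ranges was not tested. Hoxb13, 5′ most of the same cluster and a partner of the androgen receptor (chr11:96194316-96197447), measured 251, 287 and 241 CPM in AP and 408, 609 and 572 in VP (-1.03 ± 0.22, edgeR adjusted p = 0.02074). As a share of raw UMIs it hardly differed, with 2.81 to 4.55 UMIs per 10,000 in the Tgm4, Sbp, Msmb and remaining cells of both lobes, and without TMM it did not pass (-0.24, adjusted p = 0.4067). Its call therefore rests on the scaling, as do those of H2-K1, Dhrs3, Btg2, Eif4ebp1, Ndufc2 and Creb3l1 below, none of which passed without TMM.

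Genes known to respond to androgen did not move as 1 group: of 24 listed, 20 were tested, 5 were higher in AP and 4 higher in VP, with a median of 0.50. Tmprss2, a surface serine protease, was higher in AP with Pbsn (64.9, 51.5 and 47.6 CPM against 31.6, 13.6 and 15.5, 1.55 ± 0.30, edgeR adjusted p = 0.01553). Fkbp5, a co-chaperone of steroid receptors, was higher in VP with Msmb and Hoxb13, at 75.1, 105 and 68 CPM against 12.9, 14.5 and 16.4 (-2.54 ± 0.22, edgeR adjusted p = 0.001712). The lobes did not overlap for either gene, but Tmprss2 did not pass with stricter barcodes (edgeR adjusted p = 0.05176).

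In the retinoid pathway, which makes and clears retinoic acid, 1 of 11 tested genes was higher in AP and 3 were higher in VP, with a median of -0.13. Crabp1, a cytosolic retinoic acid-binding protein (chr9:54764748-54773110), measured 289.8, 222 and 669 CPM in VP and 14.4, 45.9 and 48.4 in AP (-3.45 ± 0.55, edgeR adjusted p = 0.007647, and 0.06671 with stricter barcodes). Aldh1a1, a retinal dehydrogenase, measured 68.5, 109 and 103 CPM in VP and 17.1, 16.6 and 29.6 in AP (-2.23 ± 0.27, edgeR adjusted p = 0.003444), and Dhrs3, a retinal reductase, 67.2, 54.8 and 60.2 against 28.1, 30.6 and 21.8 (-1.13 ± 0.18, edgeR adjusted p = 0.007526). Aldh1a1 is also carried by basal-keratin cells, at 442 to 565 raw CPM in the 2 lobes. Aldh1a2, the sister dehydrogenase, was the 1 higher in AP, at 6.08, 11.7 and 27.3 CPM against 2.63, 0 and 0 (4.60 ± 1.09, edgeR adjusted p = 0.03232), and did not pass with the stricter keratin gate (0.06185). In VP runs 2 and 3 it was not counted, so its call rests on the fit with 1 VP run above 0.

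Of 44 genes of endoplasmic reticulum folding and translocation, all were tested, 5 were higher in AP and none in VP, 32 had a positive log2 fold change and the median was 0.27. Over all 7905 genes tested, 9.87% were called either way and 4017 had a positive log2 fold change. With the block 15 and 1 passed. Atf6, a sensor of unfolded protein, rose in AP by 1.42 ± 0.25 (edgeR adjusted p = 0.01005) and Hyou1, a chaperone of the lumen, by 1.30 ± 0.28 (edgeR adjusted p = 0.02267), from 69.8, 37.7 and 37.9 CPM to 148, 104 and 97.5. Among 27 genes of Golgi traffic 1 was higher in AP, the cargo adaptor Mcfd2 (1.25 ± 0.28, edgeR adjusted p = 0.02688), and 4 were higher in VP, led by Nucb2, a calcium-binding precursor of nesfatin, at 354, 740.1 and 855 CPM against 109.8, 132 and 74.9 (-2.62 ± 0.36, edgeR adjusted p = 0.004795), with the secretory-pathway factor Creb3l1 at -1.28 ± 0.33 (edgeR adjusted p = 0.04573, and 0.2064 by DESeq2). Cytosolic ribosomal protein genes showed no call by edgeR among 82 tested (1 at an unadjusted p under 0.05, 0 by DESeq2, 2 with the block), with a median of 0.02, and took 21.4%, 20.6% and 26.8% of AP UMIs against 12.7%, 10.7% and 15.8% of VP UMIs. Nuclear genes of oxidative phosphorylation gave 1 call of 75, Ndufc2 (-0.93 ± 0.18, edgeR adjusted p = 0.01591).

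Among glycan enzymes 3 of 20 tested were higher in AP and 5 higher in VP, with a median of 0.12. Abo, the glycosyltransferase of the A and B blood group antigens, measured 381, 673 and 530.0 CPM in VP and 37.2, 123 and 78 in AP (-2.73 ± 0.42, edgeR adjusted p = 0.006824), and Gne, which opens sialic acid synthesis, 80.4, 85.1 and 90.3 against 26.6, 26.8 and 26.5 (-1.68 ± 0.15, edgeR adjusted p = 0.001712). Fut9, which makes the Lewis x antigen, measured 102, 169 and 198 CPM in AP and 27.7, 4.39 and 0 in VP (4.16 ± 0.78, edgeR adjusted p = 0.01334), and Gxylt2, a xylosyltransferase of Notch-type repeats, 51.3, 52.7 and 64.7 against 9.22, 1.32 and 1.94 (4.14 ± 0.46, edgeR adjusted p = 0.00287). With stricter barcodes Abo (edgeR adjusted p = 0.09779) and Gne (0.05013) did not pass, nor did Fut9 by DESeq2 (0.07615), and without run 1 Fut9 was 5.95 and Gxylt2 5.22.

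Among surface and lysosomal hydrolases 3 of 13 tested were higher each way, with a median of 0.52. The AP side held Vnn1, a pantetheinase (3.98 ± 0.48, edgeR adjusted p = 0.003444, and 5.18 without run 1), Ace, angiotensin-converting enzyme (1.82 ± 0.22, edgeR adjusted p = 0.0033), and Dpp4, a dipeptidyl peptidase (1.23 ± 0.24, edgeR adjusted p = 0.01607, and 0.08044 with stricter barcodes). The VP side included Ggt1, gamma-glutamyl transferase (-2.07 ± 0.35, edgeR adjusted p = 0.009621), and Mme, neprilysin, at 335, 627 and 415 CPM against 103, 205 and 110.0 (-1.72 ± 0.34, edgeR adjusted p = 0.01611).

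Glutathione and redox genes were called higher in VP at 8 of 33 tested and in AP at 2, with a median of -0.43, and 12 and 3 with the block. Beside Gpx3, Gstt1, a glutathione transferase, was higher in VP (27.7, 39.9 and 29.1 CPM against 5.32, 9.14 and 7.02, -2.16 ± 0.28, edgeR adjusted p = 0.003941). The 2 genes higher in AP were Prdx6, a peroxiredoxin and one of the most abundant AP messages, at 6673, 6664 and 6946 CPM against 2178, 1321 and 1378 (2.06 ± 0.30, edgeR adjusted p = 0.005872), and Gss, glutathione synthetase (1.05 ± 0.23, edgeR adjusted p = 0.02294, and 0.05742 by DESeq2). By share of UMIs the list ran the other way, 1.48%, 1.23% and 1.18% in AP and 0.566%, 0.393% and 0.402% in VP, and Prdx6 alone took 1.00%, 0.829% and 0.826% of AP UMIs.

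Of 19 zinc-handling genes tested 2 were higher in AP, among them the vesicle importer Slc30a2 (159.5, 138 and 115 CPM against 44.8, 9.21 and 12.6, 2.79 ± 0.49, edgeR adjusted p = 0.01073, and 3.61 without run 1), and 3 in VP, among them Slc30a10 (-3.36 ± 0.49) and Slc30a4 (-2.35 ± 0.44), with edgeR adjusted p of 0.005631 and 0.01342. Of 15 polyamine genes, 3 were higher in AP, among them Sms, spermine synthase (1.32 ± 0.31, edgeR adjusted p = 0.03013), and the polyamine exporter of lysosomes Atp13a2 (1.08 ± 0.25, edgeR adjusted p = 0.02769, and 0.0576 by DESeq2), and 1 in VP, Amd1, which supplies decarboxylated S-adenosylmethionine, at 123, 292 and 220.4 CPM against 42.5, 90.6 and 67.9 (-1.66 ± 0.36, edgeR adjusted p = 0.02346). Among 22 aldo-keto and lipid genes 4 were higher each way. Mgll, monoacylglycerol lipase, measured 50.1, 129 and 50.5 CPM in VP and 3.04, 6.59 and 3.9 in AP (-4.01 ± 0.47, edgeR adjusted p = 0.003257), and Akr1b3, aldose reductase, 930.5, 902 and 874 in AP against 307, 147 and 122 in VP (2.24 ± 0.35, edgeR adjusted p = 0.006659). Lpl, lipoprotein lipase, was low in both lobes (2.57 ± 0.44, edgeR adjusted p = 0.009621).

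Of 12 class I presentation genes tested, 4 were higher in VP and none in AP (median -0.68, 6 and 0 with the block), among them H2-K1, at 502, 558 and 624 CPM against 217, 225 and 199 (-1.39 ± 0.19, edgeR adjusted p = 0.004314), whose reads can be shared with other class I genes, and the immunoproteasome subunit Psmb8 (-1.56 ± 0.20, edgeR adjusted p = 0.004013). Of 23 genes of the integrated stress response, 3 were higher in AP, Gpt2 among them, and 2 in VP, Nupr1 (2745, 1141 and 2320.0 CPM against 289, 554 and 418, -2.30 ± 0.39, edgeR adjusted p = 0.009155, and 0.1989 with stricter barcodes) and Eif4ebp1 (-1.27 ± 0.25, edgeR adjusted p = 0.01555). With the block 10 and 3 passed, and 19 of the 23 had a positive log2 fold change. Immediate early genes, which respond to dissociation, gave 1 call of 22, Btg2, higher in VP (-1.15 ± 0.24, edgeR adjusted p = 0.02172, and 0.0512 with stricter barcodes). Rgs2, a regulator of G protein signalling outside these lists, was among the leading VP genes at 288, 284 and 217 CPM against 34.2, 44.2 and 11.7 (-3.08 ± 0.40, edgeR adjusted p = 0.004013), as was Fam25c (-2.85 ± 0.75, edgeR adjusted p = 0.04771). With stricter barcodes Rgs2 (edgeR adjusted p = 0.08038) and Fam25c (0.1154) did not pass, nor did Fam25c by DESeq2 (0.07953). Emcn, an endothelial sialomucin, was called higher in AP by edgeR (3.63 ± 0.82, adjusted p = 0.02733) and not by DESeq2 (adjusted p = 0.466), while Pecam1, Cdh5 and Kdr stayed near 0, and in AP it was seen in 39.1%, 30.8% and 23.5% of cells, at 0.349 UMIs per 10,000 of Tgm4 cells and 0.0209 of Sbp cells. Its shares of cells are at full depth, with no background share beside them.

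**Figure D5:**
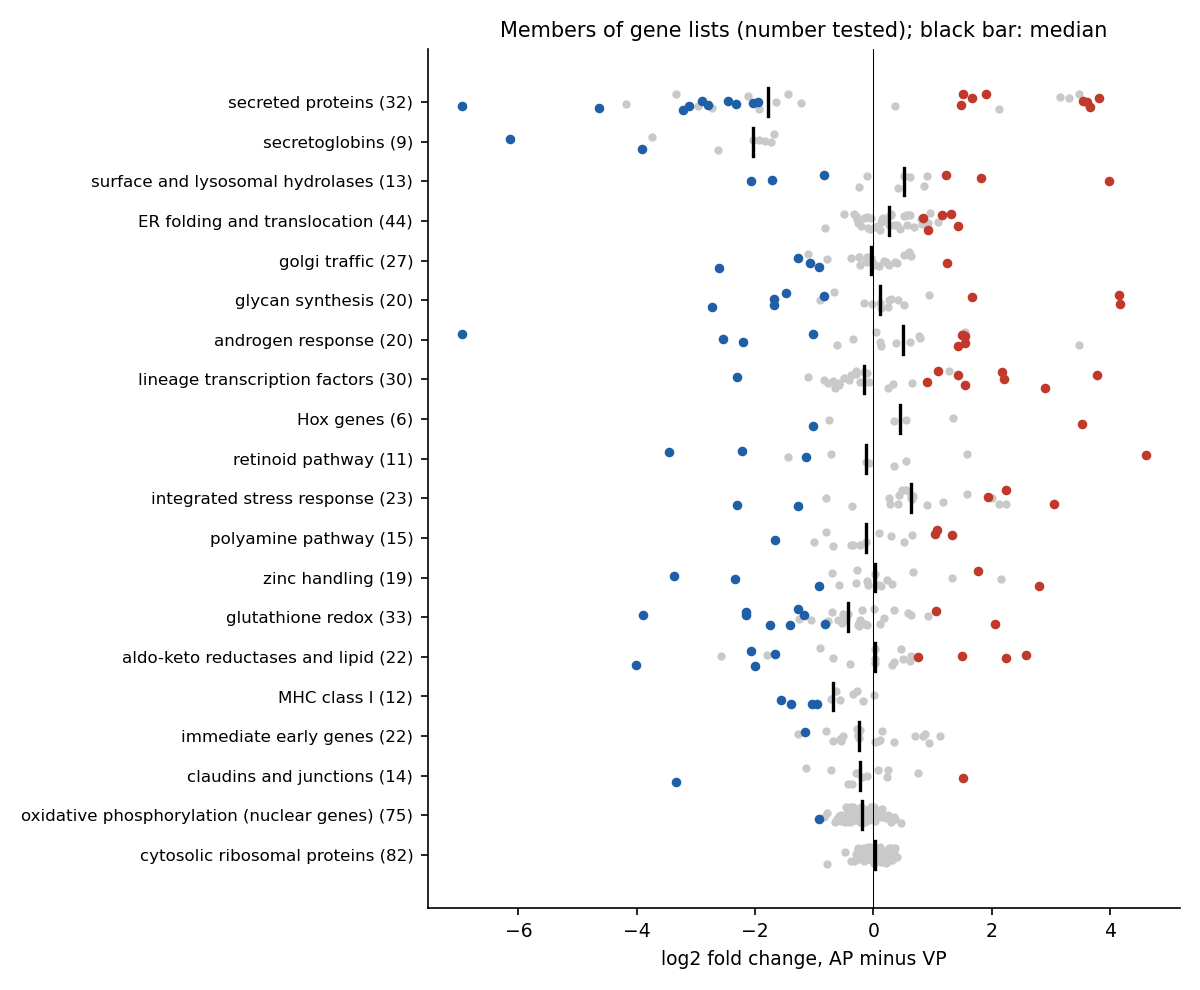
Log2 fold change, AP minus VP (x axis), of each tested member of 20 gene lists (y axis, number tested in brackets); red and blue points were called higher in AP or VP, grey points did not pass, and black bars are medians. Genes on the secreted protein list span from -6.95 (Msmb) to 3.81 (Gsdma, a pore-forming gasdermin), while the 82 ribosomal protein genes lie between -0.78 and 0.40.

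Of 14 claudin and junction genes tested, Cldn8 was higher in AP (1.52 ± 0.30, edgeR adjusted p = 0.01583) and Cldn10, a tight junction claudin that forms ion pores (chr14:118787908-118875489), was higher in VP, at 311, 468 and 299 CPM against 60.8, 30.4 and 13.3 (-3.34 ± 0.48, edgeR adjusted p = 0.005235, 0.06208 with stricter barcodes, and a log2 fold change of -4.01 without run 1). In RFP+ luminal cells, chosen by the same gates, Cldn10 measured 259.6, 243 and 253 CPM in AP and 214, 250.4 and 158 in VP, so the lobes overlapped there. The lobe difference in RFP- cells minus that in RFP+ cells was -3.54 ± 0.55 (edgeR adjusted p = 0.005783). Without the cells that have Psca or Krt4 it was -3.60 (edgeR adjusted p = 0.03178), and with stricter barcodes it did not pass (-3.44, 0.07073). Over all genes this test called 487 of 9970 (4.88%), 207 positive (2.08%) and 280 negative (2.81%). It called 5 without those proximal cells, and 0 without run 2 or without run 3 (1183 and 1303 at an unadjusted p under 0.05). Proximal cells were 152, 91 and 112 of 181, 123 and 158 AP RFP+ luminal cells and 12, 5 and 0 of the 87, 159 and 51 AP RFP- ones. Of the 24 leading genes, Cldn10 was the 1 called. With the block 1369 of all genes passed (13.7%), and 4 of the 24 by edgeR, the others being Msmb (-5.91 ± 2.43, adjusted p = 0.1936 without the block and 0.002526 with it), Timp4 (-1.66 ± 0.47, 0.06955 and 0.002551) and Gpt2 (1.38 ± 0.59, 0.2094 and 0.04095). Msmb in VP RFP+ luminal cells was 25.2, 1778 and 204 CPM, each below the 3519.8, 24228 and 13776 of VP RFP- cells of the same run.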

How the data were processed

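scRNA-seq libraries (10x 3′ v3) of 3 adult runs were analysed; runs 1 and 2 had been sequenced on another instrument than run 3. The authors ran Cell Ranger 3.1.0 on mm10 (GRCm38) and deposited raw UMI counts per gene and cell, MULTI-seq barcode counts and a sheet naming each barcode; the files hold no columns of the authors' own comparisons. In run 3 that sheet gives the same barcode sequence to an AP and a VP population, so barcodes were matched by number. A cell was assigned where its top barcode was at least 3 times the library median and at least 2 times the second. DoubletFinder, used by the authors, was not run, and barcodes remove doublets between populations only. Libraries shared at most 6 cell barcodes.

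UMI counts of 31053 genes were summed per lobe and run. Genes passing filterByExpr were tested with edgeR 4.0.16 in R 4.3.3 (TMM, quasi-likelihood test, Benjamini-Hochberg over all genes tested, threshold 0.05); ± after a log2 fold change is its standard error, and levels are TMM-scaled CPM. The main fit has no block. Same-numbered AP and VP sums come from the same pool of mice, and their deviations from the lobe means correlated at 0.40, 0.21 and 0.35 in runs 1, 2 and 3, so the runs pair the sums; blocked values are given where they change a call. The script was tested on simulated counts. Cells were thinned at random with a fixed seed. Shares of cells with a UMI were set beside basal-keratin cells instead of the planned Ptprc-positive cells, of which run 3 held 2. Gene coordinates are from GENCODE annotation of GRCm38, promoters from RefSeq.

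Leading genes were the 12 largest and 12 smallest log2 fold changes among called genes that changed the same way in each run with at least 100 CPM in the higher lobe; other genes named are the extremes of each gene list, transcription factors, Hox and retinoid genes, and genes the study names for its luminal clusters. Sbpl, C1rb, 9530053A07Rik and 9530002B09Rik were named for their abundance after their values were seen. Some genes that the rule names are not reported here. The members and lists were chosen with earlier results of these data known. Alternatives were DESeq2 1.42.0, no filter, 2 other library sizes, the block, stricter barcodes and keratin gates, leaving out runs, proximal cells or the 10% of cells with most UMIs and, added after seeing the data, no luminal keratin minimum. Intervals and limits on shares cover counting error only, and p-values measure the spread between 3 pools.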

Additional observations from a re-analysis of the deposited data

Results flagged for a closer look

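Cldn10 had a lobe difference in RFP- luminal cells that differed from that in RFP+ luminal cells by -3.54 on the log2 scale (edgeR adjusted p = 0.005783 for the difference itself), with VP above AP in 3 of 3 runs of RFP- cells and in 1 of 3 runs of RFP+ cells.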

How the results depend on the processing

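The count of genes that differed between AP and VP was 780. It was 1187 with no filter on low counts, 3578 with raw totals in place of TMM and 463 with stricter barcodes, and it ranged from 0 to 1039 when each run was left out in turn. With run as a replicate block it was 1533, and all 780 genes remained. The test of the lobe difference between RFP fractions called 487 genes, and 261 with raw totals, 310 with totals free of the 50 most abundant genes, 1369 with the replicate block, 237 with stricter barcodes, 5 without Psca or Krt4 cells, 840 without the 10% of cells with most UMIs, and 0 to 388 with a run left out. The difference in genes per cell (VP minus AP, 57) turned to -72.7 with stricter barcodes, to -442 with the stricter keratin gate and to -35 without run 1, which is also the setting with at least 20 cells in every sum; it ranged from -35 to 130 with a run left out. Thinned to 1000 UMIs, the mean share of cells with a UMI fell to 21.8% for Fgl1 in AP, 43.2% for Gsdma in AP and 25.4% for Pbsn in VP. Without TMM, Foxa1 turned to 0.50 and Runx1 to 0.39, and without Psca or Krt4 cells the Gpt2 contrast between RFP fractions turned to -0.21. The causes were not tested. Calls for named genes cover the lobe difference and, for Cldn10, Msmb, Timp4 and Gpt2, also the contrast between RFP fractions. Of these calls, 19 were lost with stricter barcodes, Cldn10 in both, and 10 by DESeq2. Without the 10% of cells with most UMIs 8 were lost (Pbsn, Scgb2b27, Ehf, Btg2, Eif4ebp1, Hoxb13, Mcfd2 and Atp13a2). With no luminal keratin minimum 5 were lost (Msmb, Scgb1b27, Scgb2b27, Fam25c and Creb3l1), and without TMM 7. With the replicate block 16 were gained, among them the RFP contrasts of Msmb, Timp4 and Gpt2, and none were lost. A limit of 7500 UMIs per cell could not be fitted, since it left 1, 0 and 6 VP cells in runs 1, 2 and 3. VP run 1 was the smallest sum, with 19 cells and 791268 UMIs, although its median cell held 26725 UMIs.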
